A study of Drosophila melanogaster with 6 samples.

Results

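Glutathione transferases (GSTs) are enzymes that join the tripeptide glutathione to electrophilic molecules, among them plant toxins, insecticides and the lipid aldehydes that form under oxidative stress. The cytosolic enzymes act as dimers and are sorted by sequence into classes. The Delta and Epsilon classes belong to arthropods and lie mostly in tandem gene arrays, the Sigma, Theta, Omega and Zeta classes are shared with mammals, and the midgut is a main site of this chemistry in the fly. The genes described here are the Drosophila melanogaster genes whose symbol is Gst followed by the letter of a class (D, E, O, S, T or Z) and a number. There were 35 of them among 17806 named genes: 11 Delta, 14 Epsilon, 3 Omega, 1 Sigma, 4 Theta and 2 Zeta. Members were taken by symbol only, but these genes and the lists used below were chosen with earlier results of these data known. The gene se (sepia), for which RefSeq also lists an Omega-class name, is outside that rule and had 10 reads in esgTS and 8 in Patr1.

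RNA was sequenced from intestinal progenitor cells, the stem cells of the gut and their undifferentiated daughters, sorted as GFP-positive cells from adult female flies kept at 29 °C for 6 days. Each library came from the pooled guts of 100 flies and 30000 to 50000 sorted cells. The genotypes were labelled Patr1 and esgTS, with 3 libraries each. In this field esgTS usually means a temperature-sensitive Gal4 system driven by escargot, a progenitor transcription factor gene, but the labels list neither its transgenes nor the way in which Patr1 alters the Patr-1 gene. The series asked which RNAs are controlled by P-bodies, granules of the cytoplasm where silenced mRNAs and decapping proteins gather; Patr-1 activates decapping there.

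Library totals ran from 2035676 to 2958607 reads, and levels are given as CPM, read counts scaled to library size; the floor of detection was set at 3 reads, or 0.992 to 1.51 CPM. The Patr-1 transcript averaged 219 ± 12.1 CPM in esgTS and 35.7 ± 3.37 in Patr1 (mean ± SD, n = 3 each), with no overlap of libraries. The progenitor genes esg, Dl, N and Sox21a were abundant in all libraries, at a summed 2939 to 3160 CPM in esgTS and 3504 to 4055 in Patr1. Dl, N and Sox21a were higher in Patr1 (1.38-, 1.32- and 1.34-fold, edgeR adjusted p under 0.05), and esg did not pass. Markers of other gut cells were also present. Beside the counts that follow, 25.5% of all genes tested were higher and 23.9% lower in Patr1. All 8 enterocyte markers were higher in Patr1 (edgeR adjusted p under 0.05), with a summed level of 327 to 353 CPM in esgTS and 1078 to 1116 in Patr1. Of 6 enteroendocrine markers, all tested, 2 were higher and 0 lower (185 to 211 CPM in esgTS, 111 to 231 in Patr1). Visceral muscle had 6 listed markers, of which 4 were tested, 1 was higher and 0 lower (24.4 to 28.8 and 70.9 to 94.9 CPM). The higher one, bt, made up most of that rise, going from 6.70 ± 1.68 CPM in esgTS to 61.5 ± 10.8 in Patr1. Mhc, up and Mlc2 did not pass. Of 5 Malpighian tubule markers, 3 were tested, of which 2 were higher and 1 lower. Irk1 went from 6.82 ± 2.34 CPM in esgTS to 20.1 ± 1.75 in Patr1, and Alp4 from 1.45 ± 1.07 to 6.57 ± 1.78. Picot, which fell from 131 ± 9.95 to 97.6 ± 11.2 CPM, made up most of their summed level (132 to 155 CPM in esgTS, 112 to 134 in Patr1). Uro, a defining tubule gene, had 2 reads in each genotype and was not tested. Of 5 hemocyte markers, 2 were tested (srp and crq), of which 0 were higher and 2 lower. They made up most of the list's summed level (289 to 326 CPM in esgTS, 221 to 227 in Patr1). Hml, not tested, had 2 reads in esgTS and 15 in Patr1, and NimC1 and eater had 0 reads. Of 5 fat body markers, 2 were tested and 0 passed (26.7 to 33.7 and 23.6 to 28.1 CPM), and Lsp2 had 0 reads. The enterocyte markers, as well as Dl, N and Sox21a, moved with the genotype in the same direction as most GST genes below. The part of these cell type differences in those results was not tested.

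GST transcripts were more abundant in the Patr1 libraries. The summed levels of the Delta, Epsilon, Omega and Sigma classes were higher there, most of all that of Delta. Summed over the 35 genes, the level was 1086, 1000 and 1146 CPM in esgTS replicates 1, 2 and 3 and 1592, 1485 and 1449 CPM in the Patr1 replicates, a ratio of 1.40, and the genotypes did not overlap. The Theta class went the other way, and Zeta differed little. Of the 35 genes, 33 had at least 1 read, 25 passed the filter on low counts and were tested, and 10 were not tested. Among the 25 tested genes, 16 were higher and 5 lower in Patr1 at an edgeR adjusted p of 0.05, and 4 did not pass. Across all 7927 tested genes 25.5% were higher and 23.9% lower (49.4% in either direction), so the share of tested GST genes that were higher (64.0%) was above that background and the 5 of 25 that were lower were near it. Of the 25 tested GST genes, 11 rose over 2-fold, against 7.83% of all tested genes, and 2 fell over 2-fold, against 7.24%.

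The filter bears on these counts. Of the 25 genes, 7 (GstD2, GstD4, GstD5, GstE2, GstE8, GstE9 and GstE10) were above it in every Patr1 library but not in every esgTS library. For GstD4, GstD5, GstE2, GstE9 and GstE10 no esgTS library was above it, so they had to be higher in Patr1. GstE8 was above it in 1 esgTS library and GstD2 in 2, so their direction was favoured by the filter but not fixed. All 7 are among the 11 genes that rose over 2-fold, and the rest of the 11 are GstD9, GstE3, GstE6 and GstE7. Among the 18 genes above the filter in both genotypes, 9 were higher and 5 lower, where 24.1% and 23.6% of all such genes were. Their median log2 fold change was 0.34, beside 0.01 for all genes of that kind. The genotypes did not overlap for 21 of the 25 tested genes, against 57.3% of all tested genes. All 7 genes named above are among the 21, so the filter bears on this count too. The share was not computed for genes above the filter in both genotypes. In RNA from sorted pools, more cells that express a gene and more RNA per cell cannot be told apart.

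**Figure D1:**
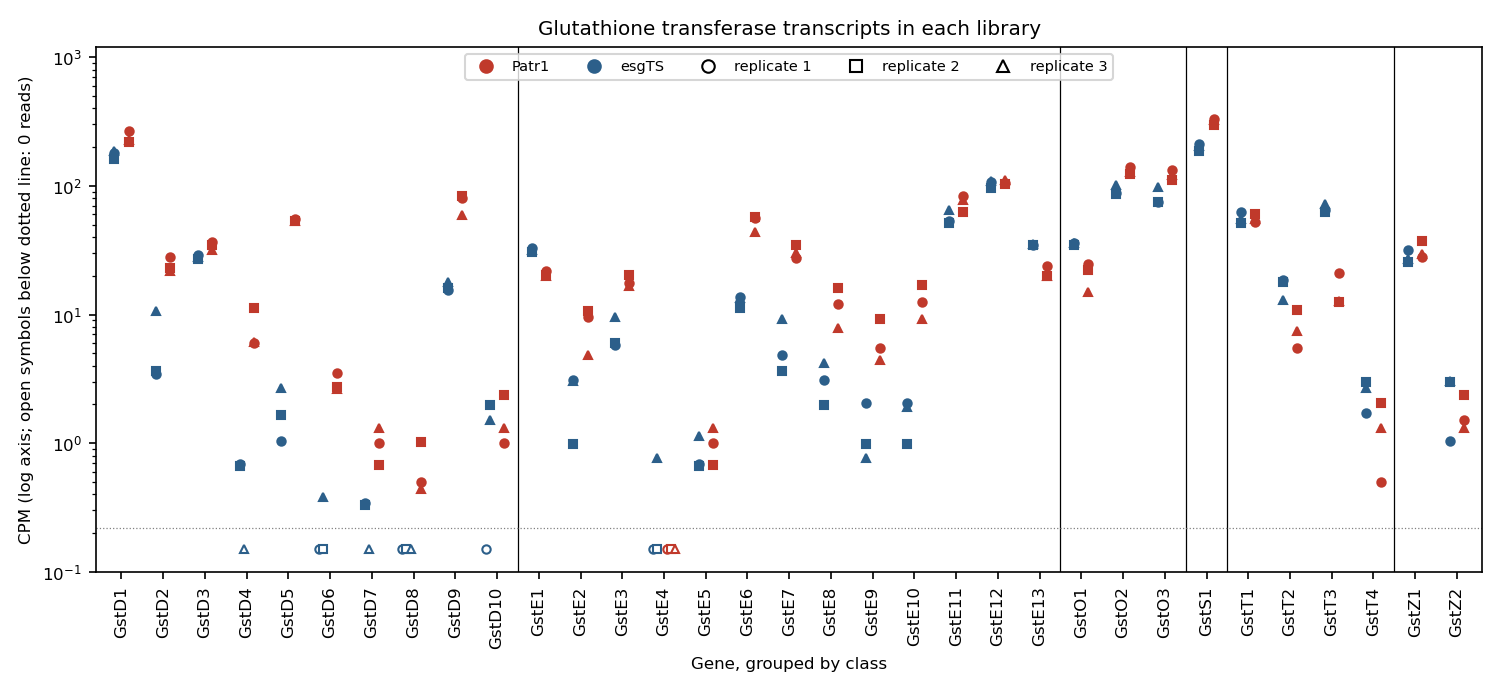
Level of each GST gene with at least 1 read in each library, in CPM on a log axis, grouped by class; circles, squares and triangles are replicates 1, 2 and 3, and open symbols under the dotted line are libraries with 0 reads. GstD5 sits at 53.5 to 55.3 CPM in Patr1 and 1.03 to 2.67 in esgTS, while GstT3 sits at 12.6 to 21.1 and 62.2 to 72.1 CPM.

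The Delta class had the largest ratio of summed levels. Its 11 genes together stood at 230 ± 17.1 CPM in esgTS and 440 ± 36.7 in Patr1 (mean ± SD, n = 3 each), a ratio of 1.91, and their part of all GST reads went from 21.4% ± 0.25 to 29.1% ± 1.01. Of 6 Delta genes tested, 5 rose, 0 fell and 1 did not pass. Of the 3 above the filter in both genotypes, 2 rose. The other 5 genes were below the filter.

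GstD1, the most abundant GST transcript per base of gene in either genotype, encodes an enzyme known for DDT metabolism, and its promoter drives a widely used reporter of oxidative stress. It was at 180, 162 and 186 CPM in esgTS replicates 1, 2 and 3, and at 266, 220.2 and 229 CPM in the Patr1 replicates. All Patr1 libraries lay above all esgTS libraries, by 1.35-fold (log2 0.43 ± 0.09 SE, edgeR adjusted p = 0.00213). It is the only Delta gene that rose by less than 2-fold among the 5 that passed.

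GstD5 had the largest fold change among the 25 tested genes. Its level was 1.03, 1.65 and 2.67 CPM in the esgTS libraries, from 3, 5 and 7 reads, and 55.3, 53.5 and 53.6 CPM in Patr1, from 110, 157 and 122 reads. The esgTS values were near the floor of detection and the Patr1 values nearly equal to one another. The fitted change was 30.0-fold (log2 4.91 ± 0.24 SE, edgeR adjusted p = 1.30e-08). Its neighbour GstD4 had 2, 2 and 0 reads in esgTS and 12, 33 and 14 in Patr1. The ratio of its group totals, 59 and 4 reads scaled to depth, was 17.5, with an exact 95% interval of 6.50 to 66.5 that covers counting error only (log2 3.97 ± 0.58 SE, edgeR adjusted p = 1.19e-04).

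GstD9 and GstD2 rose by similar factors from different levels. GstD9 was at 15.5, 16.2 and 17.9 CPM in esgTS and 80.9, 83.5 and 59.3 CPM in Patr1, with replicate 3 the lowest Patr1 library. That is 4.52-fold higher (log2 2.18 ± 0.16 SE, edgeR adjusted p = 4.23e-07). GstD2 was at 3.44, 3.64 and 10.7 CPM in esgTS and 28.1, 22.8 and 21.98 CPM in Patr1. The esgTS library of replicate 3 stood above the other esgTS libraries and still below every Patr1 library (4.16-fold, log2 2.06 ± 0.35 SE, edgeR adjusted p = 3.90e-04). Without that library the log2 fold change was 2.76.

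GstD3 was the tested Delta gene that did not pass. It stood at 28.9, 26.8 and 28.2 CPM in esgTS and 36.7, 34.4 and 31.6 CPM in Patr1, a log2 difference of 0.29 ± 0.14 SE (edgeR adjusted p = 0.0938). The genotypes did not overlap, but the difference was small beside those of GstD2 and GstD4 on either side of it. Among the untested Delta genes, GstD6 had 1 read over the esgTS libraries and 21 over the Patr1 libraries (scaled ratio 25.0), with an exact 95% counting interval of 4.01 to 1032. GstD7 had 2 reads in esgTS and 7 in Patr1 (ratio 4.16, interval 0.79 to 41.0), and GstD10 had 10 and 12. GstD8 had 0 reads in esgTS and 5 in Patr1. GstD11 had 0 reads in all 6 libraries, so its level was at most that of the 3-read floor in each.

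**Figure D2:**
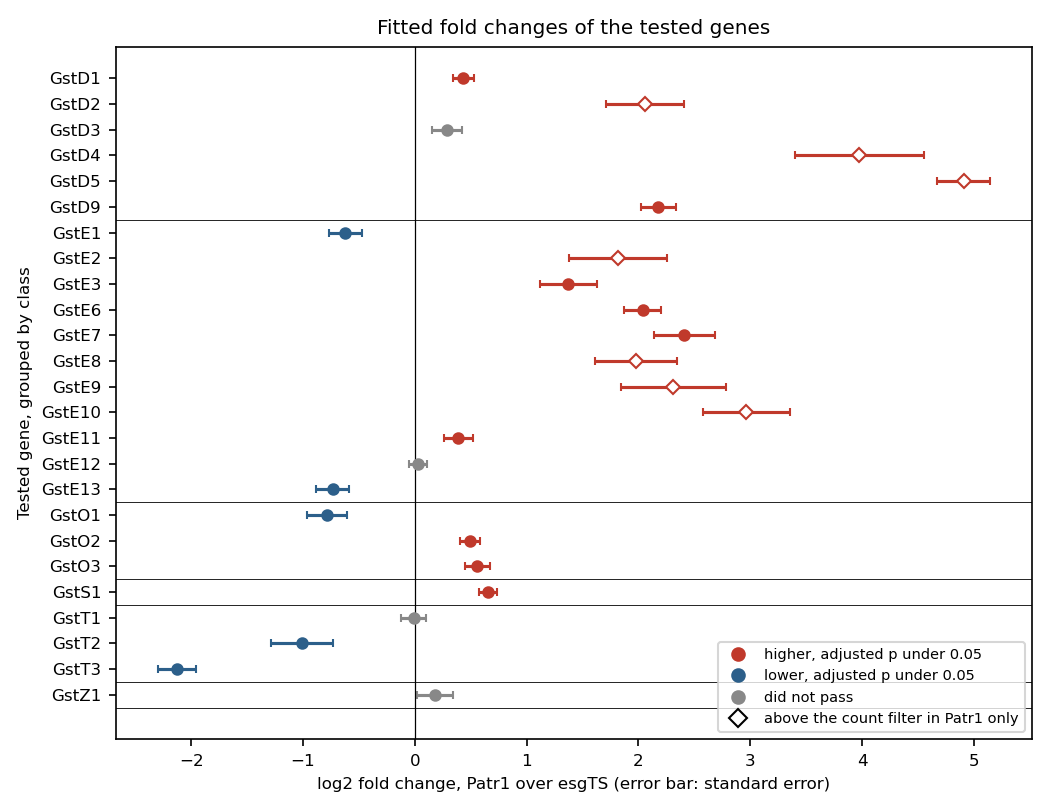
Fitted log2 fold change of Patr1 over esgTS for the 25 tested GST genes, grouped by class, with standard errors. Red, blue and grey mark genes higher, lower and not past an edgeR adjusted p of 0.05. Open diamonds mark genes above the count filter in every Patr1 library but not in every esgTS library. The values run from 4.91 for GstD5 to -2.13 for GstT3, with all 3 tested Theta genes at or left of 0.

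The Epsilon class held the most genes that rose, 8 of 11 tested, with 2 that fell and 1 that did not pass. Among its 7 genes above the filter in both genotypes, 4 rose and 2 fell. Its summed level was 263 ± 22.9 CPM in esgTS and 365 ± 16.3 in Patr1, a ratio of 1.39. Its part of all GST reads was 24.4% ± 0.48 in esgTS and 24.2% ± 0.76 in Patr1, which differ by less than the spread between replicates. Like Delta enzymes, Epsilon enzymes are known chiefly from work on insecticide metabolism.

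GstE6 was the most abundant of the Epsilon genes that rose over 2-fold. It was at 13.7, 11.2 and 13.4 CPM in esgTS replicates 1, 2 and 3 and at 56.3, 56.9 and 44.0 CPM in the Patr1 replicates, or 4.10-fold higher (log2 2.04 ± 0.16 SE, edgeR adjusted p = 9.91e-07). GstE7, the next gene along the chromosome, was at 4.81, 3.64 and 9.15 CPM in esgTS and 27.6, 34.4 and 29.9 CPM in Patr1, or 5.32-fold higher (log2 2.41 ± 0.28 SE, edgeR adjusted p = 1.82e-05). For both genes every Patr1 library was over 2-fold above the highest esgTS library. In esgTS, replicate 3 was the highest library for GstE7, GstE3 and GstE8, as it was for GstD2, GstD5 and GstD9. Replicate 1 was the highest for the other genes that rose over 2-fold, GstE6, GstE2, GstE9, GstE10 and GstD4.

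Less abundant Epsilon genes rose too. GstE10 went from 2.06, 0.99 and 1.91 CPM in esgTS to 12.6, 17.04 and 9.23 in Patr1, the largest factor of the class at 7.80-fold (log2 2.96 ± 0.39 SE, edgeR adjusted p = 5.19e-05). GstE9 went from 2.06, 0.99 and 0.76 CPM to 5.53, 9.20 and 4.40 (4.96-fold, edgeR adjusted p = 0.00151). Levels of GstE8 were 3.09, 1.98 and 4.19 CPM in esgTS and 12.1, 16.0 and 7.91 in Patr1 (3.94-fold, edgeR adjusted p = 8.38e-04). These were small counts, from 11 to 26 reads over the 3 esgTS libraries, and Patr1 replicate 2 was the highest library in each. GstE2 was at 3.09, 0.99 and 3.05 CPM in esgTS and 9.55, 10.6 and 4.83 in Patr1 (3.53-fold, edgeR adjusted p = 0.00462). The smallest factor among these genes was that of GstE3, at 5.84, 5.95 and 9.53 CPM in esgTS and 17.6, 20.4 and 16.7 in Patr1 (2.59-fold, log2 1.37 ± 0.26 SE, edgeR adjusted p = 8.76e-04). None of these 5 genes overlapped between the genotypes.

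The most abundant Epsilon transcripts changed little. GstE12 was at 108, 96.6 and 109 CPM in esgTS and 106, 103 and 111 in Patr1, a log2 difference of 0.03 ± 0.08 SE (edgeR adjusted p = 0.80), with overlapping genotypes. GstE11 was at 53.3, 51.3 and 64.8 CPM in esgTS and 82.9, 63.1 and 77.4 in Patr1. It passed the test at 1.31-fold (log2 0.39 ± 0.13 SE, edgeR adjusted p = 0.0235), but the genotypes overlapped. The call was lost with DESeq2 (adjusted p = 0.086) and when Patr1 replicate 1 or 3, or esgTS replicate 1 or 2, was left out (edgeR adjusted p = 0.0639 to 0.0929).

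GstE1 and GstE13 fell. GstE1 was at 33.0, 30.4 and 31.7 CPM in esgTS and 21.6, 20.4 and 19.8 in Patr1, 1.54-fold lower (log2 -0.62 ± 0.15 SE, edgeR adjusted p = 0.0042). GstE13 was at 34.7, 34.4 and 35.5 CPM in esgTS and 23.6, 19.8 and 19.8 in Patr1, 1.66-fold lower (log2 -0.74 ± 0.15 SE, edgeR adjusted p = 0.00134). The libraries of each genotype were tightly grouped and did not overlap. GstE4 had 0 reads in Patr1 and 2 in esgTS, and GstE5 had 7 and 7. GstE14, known as noppera-bo and required for ecdysteroid synthesis in the prothoracic gland, had 0 reads in all 6 libraries.

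**Figure D3:**
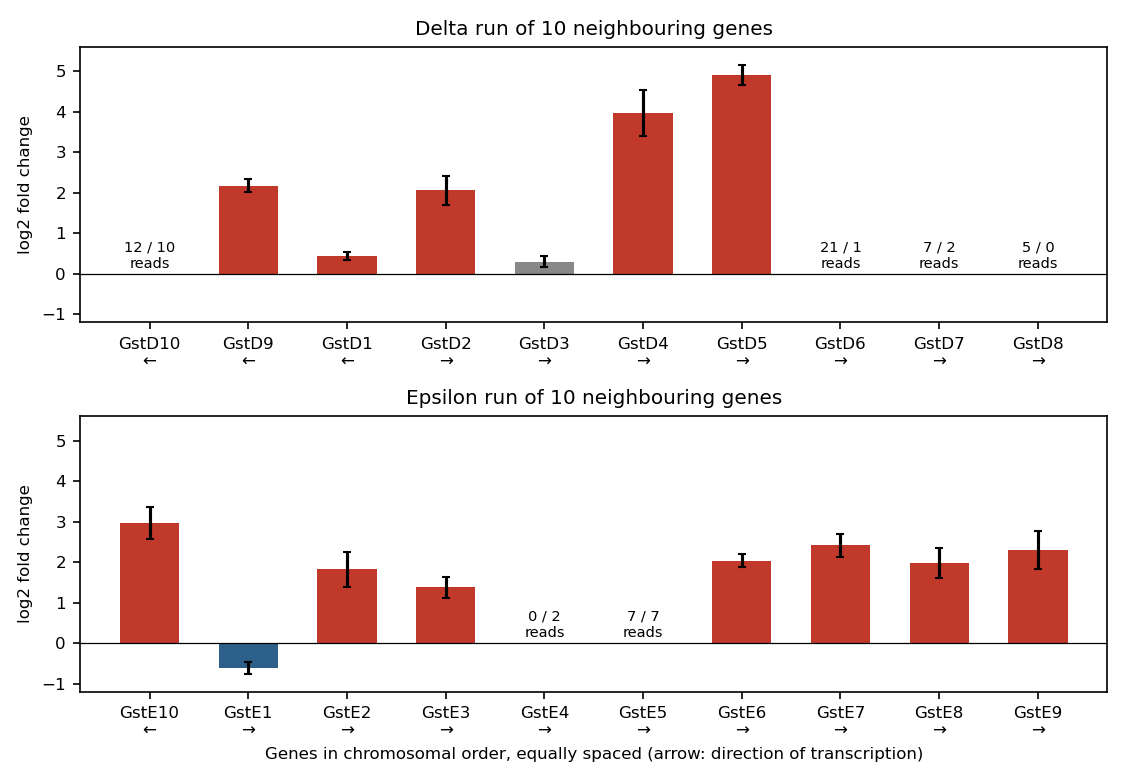
Log2 fold change of Patr1 over esgTS, with standard errors, for the genes of the Delta and Epsilon runs in chromosomal order, equally spaced, with arrows for the direction of transcription; untested genes show total reads in Patr1 and esgTS. GstD3 (0.29) stands between GstD2 (2.06) and GstD4 (3.97), and GstE1 (-0.62) between GstE10 (2.96) and GstE2 (1.82).

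The genes that rose over 2-fold lay in runs of adjacent genes. In the BDGP6 annotation 10 Delta genes are direct neighbours among protein-coding genes, GstD10, GstD9 and GstD1 on one strand followed by GstD2 to GstD8 on the other, and 10 Epsilon genes form a second run, GstE10 on one strand followed by GstE1 to GstE9. All 11 genes that rose over 2-fold lie in these runs, as do 3 tested genes that did not (GstD1, GstD3 and GstE1). Of the 6 tested genes of the Delta run 5 rose and 0 fell, and of the 8 tested genes of the Epsilon run 7 rose and 1 fell. Of the 15 GST genes outside the runs 11 were tested, of which 4 rose, 4 fell and 3 did not pass, with a median log2 fold change of 0.03. All 7 genes above the filter in every Patr1 library but not in every esgTS library were in the runs. These counts and the median log2 fold changes of the runs, 2.12 and 2.01, are thus raised by the filter. Among genes above the filter in both genotypes, 2 of 3 rose and 0 fell in the Delta run (median 0.43), and 3 of 4 rose and 1 fell in the Epsilon run (median 1.71).

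The rise was uneven along both runs. GstD3 and GstE1 differ from the neighbours on both of their sides, and GstE4 and GstE5, with at most 7 reads in either genotype, lie between GstE3 and GstE6. Outside the Epsilon run, imd, an adaptor gene of immune signalling that follows GstE9, was at 23.3 ± 2.76 CPM in esgTS and 25.9 ± 2.77 in Patr1 (log2 0.15 ± 0.17 SE, edgeR adjusted p = 0.472). The other flanking genes, Idgf5, Tim17a1 and CG10035, had at most 2 reads in either genotype and were not tested. The Delta and Epsilon genes are tandem copies of similar sequence, and the sources used here do not say how reads that match several copies were counted, so reads may be shared among copies of a run. GstE1 and GstE10 share a few transcribed bases on opposite strands (2.41% of the exon bases of GstE1), and their fold changes have opposite signs.

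The Omega class, whose enzymes use a cysteine in catalysis and can reduce dehydroascorbate, was split. GstO2 was at 88.7, 86.7 and 102 CPM in esgTS replicates 1, 2 and 3 and 140.2, 123 and 127 CPM in the Patr1 replicates (1.41-fold, log2 0.49 ± 0.09 SE, edgeR adjusted p = 8.19e-04). GstO3 was at 74.6, 75.4 and 97.2 CPM in esgTS and 133, 111 and 121 in Patr1 (1.47-fold, log2 0.56 ± 0.11 SE, edgeR adjusted p = 0.0015). In both genes the genotypes did not overlap and esgTS replicate 3 was the highest esgTS library. GstO1, the direct neighbour of GstO2 on the same strand, was lower in Patr1, at 24.6, 22.2 and 14.9 CPM against 36.1, 34.4 and 35.8 (1.72-fold lower, log2 -0.78 ± 0.18 SE, edgeR adjusted p = 0.00295). The summed level of the class was 210.2 ± 21.4 CPM in esgTS and 272 ± 22.04 in Patr1, a ratio of 1.30.

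GstS1, the single Sigma gene, encodes an enzyme that conjugates the lipid peroxidation product 4-hydroxynonenal and is abundant in flight muscle. It took the largest part of GST reads, 18.8% ± 0.88 in esgTS and 21.1% ± 1.17 in Patr1. Its level was 213, 188 and 205 CPM in esgTS and 330.1, 299.6 and 325 CPM in Patr1. Every Patr1 library lay above every esgTS library, by 1.57-fold (log2 0.65 ± 0.08 SE, edgeR adjusted p = 3.73e-05).

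**Figure D4:**
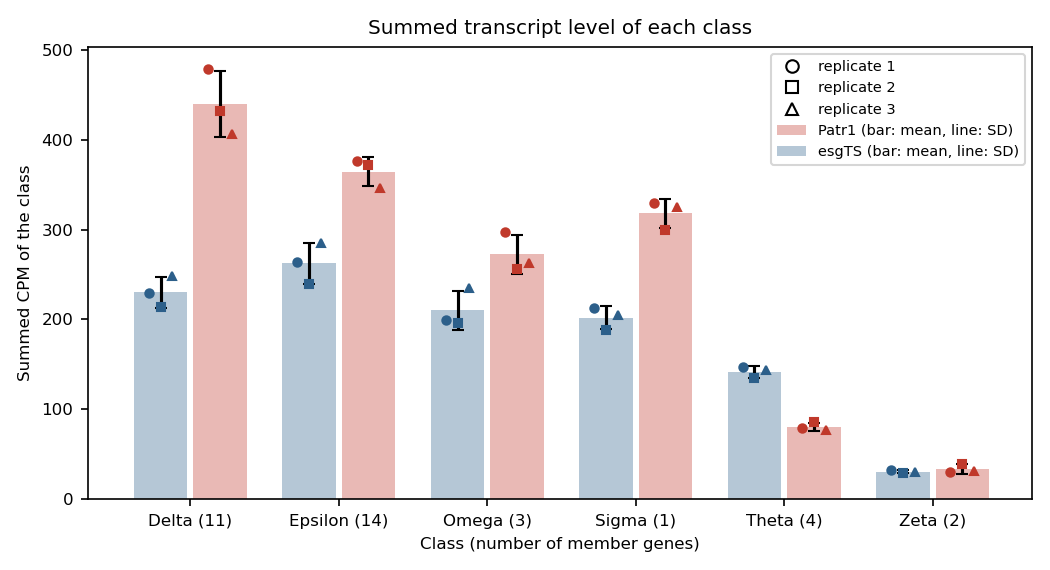
Summed CPM of each GST class in esgTS (blue) and Patr1 (red); bars are means of 3 libraries, lines are SD and symbols are the replicates. The Delta bars stand at 230 and 440 CPM and the Theta bars at 142 and 80.6, while the Zeta bars differ by less than the spread between replicates.

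The Theta class, related to the mammalian Theta enzymes, was the class whose sum was lower in Patr1. Together its 4 genes were at 142 ± 6.73 CPM in esgTS and 80.6 ± 4.44 in Patr1, a log2 ratio of -0.81, and their part of all GST reads went from 13.2% ± 0.58 to 5.35% ± 0.39. GstT3 accounted for most of the fall. It was at 64.6, 62.2 and 72.1 CPM in esgTS and 21.1, 12.6 and 12.7 in Patr1, 4.37-fold lower (log2 -2.13 ± 0.17 SE, edgeR adjusted p = 9.61e-07), the largest fall of any GST gene tested. GstT2 was at 18.6, 17.9 and 13.0 CPM in esgTS and 5.53, 10.9 and 7.47 in Patr1, 2.01-fold lower (log2 -1.01 ± 0.28 SE, edgeR adjusted p = 0.0103). The genotypes did not overlap for either gene. Of the exon bases of GstT2, 25.1% overlap CG12926 on the opposite strand, whose own counts were higher in Patr1 (31.4 ± 5.75 CPM in esgTS and 47.3 ± 6.70 in Patr1, edgeR adjusted p = 0.00921). Whether the authors' counting used strand is not stated, so reads of this pair cannot be told apart with certainty.

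GstT1, which lies beside GstT2 on the same strand, was at 62.5, 51.3 and 55.7 CPM in esgTS and 52.3, 60.0 and 55.4 in Patr1. The genotypes overlapped, with a log2 difference of -0.01 ± 0.11 SE (edgeR adjusted p = 0.958). GstT4 was not tested, with 21 reads in esgTS and 10 in Patr1. In the Zeta class, named for maleylacetoacetate isomerase, an enzyme of tyrosine breakdown, GstZ1 was at 31.6, 25.8 and 27.1 CPM in esgTS and 28.1, 37.1 and 29.4 in Patr1 (log2 0.18 ± 0.16 SE, edgeR adjusted p = 0.372). GstZ2, its neighbour, had 20 reads in esgTS and 13 in Patr1 and was not tested. Neither Zeta gene showed a difference beyond the spread between libraries.

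Levels of different genes were compared per base of gene length, as TPM (read counts per base, scaled to the same total in each library). In esgTS the order began with GstD1 at 573 ± 27.1 TPM, followed by GstO3 (256 ± 34.5), GstS1 (244 ± 12.4), GstE12 (205 ± 9.03), GstE11 (164 ± 17.5), GstT1 (156 ± 14.6), GstO2 (145 ± 9.70) and GstT3 (133 ± 7.22). GstO3 and GstS1 differed by less than the larger of their SDs, as did GstE11 and GstT1, and GstT1 and GstO2. In Patr1, GstD1 was again first at 758 ± 48.8 TPM, and GstS1 (376 ± 13.4) and GstO3 (370.3 ± 20.2) followed, again closer than their SDs. Next came GstD9 at 255 ± 44.4, ranked 4 where it was 14 in esgTS, then GstE11 (212 ± 23.5), GstE12 (205 ± 11.1), GstO2 (201 ± 6.19) and GstE6 (187 ± 25.1), a stretch in which each gene differed from the next by less than the larger of their SDs. GstD5 moved from rank 22 (5.81 ± 2.59 TPM) to rank 9 (173 ± 3.34 TPM), and GstT3 from rank 8 to rank 20 (30.2 ± 8.24 TPM). The 11 genes that rose over 2-fold were thus at 57.7 TPM (GstD9) or less in esgTS. The 8 genes named first for esgTS changed by less than 2-fold apart from GstT3. This contrast is partly fixed by the filter, since 7 of the 11 were not above it in every esgTS library. GstD4, GstD5, GstE2, GstE9 and GstE10 were above it in no esgTS library and so had to be low there. Outside these 7, GstD9, GstE6, GstE3 and GstE7 passed it in both genotypes and were at 57.7, 46.7, 25.8 and 20.9 TPM in esgTS.

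**Figure D5:**
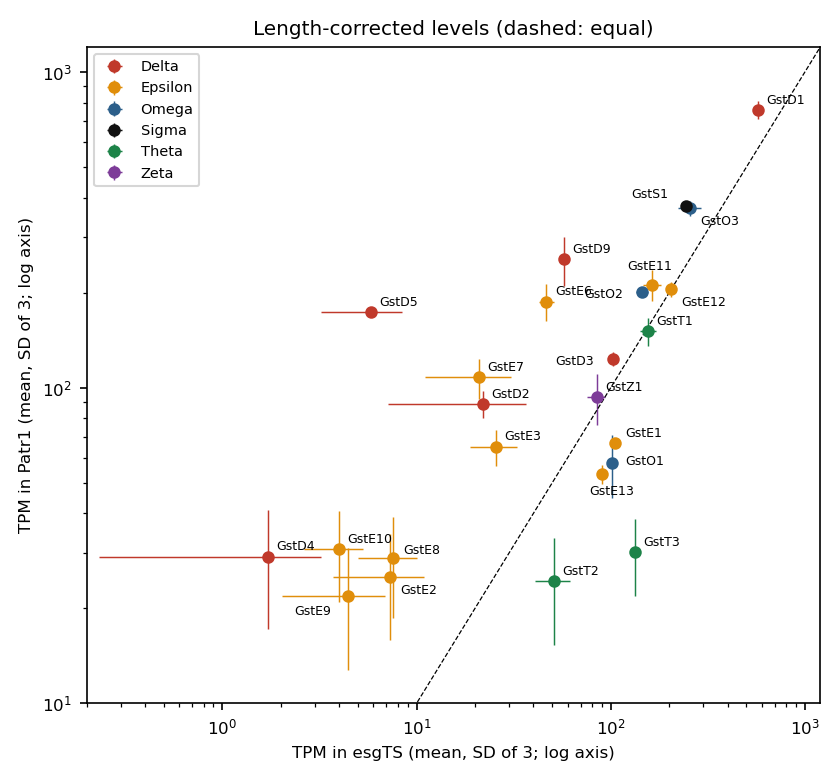
Length-corrected level of the 25 tested GST genes in Patr1 against esgTS, in TPM on log axes, as means with SD of 3 libraries; the dashed line marks equal levels and colours mark classes. GstD5 (5.81 against 173 TPM) lies farthest above the line and GstT3 (133 against 30.2) farthest below it, while GstD1 is the highest gene on both axes.

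Genes that supply glutathione, export its conjugates or control GST genes were examined in the same fit, where the background for each count is again 25.5% higher and 23.9% lower. GSTs depend on glutathione made by glutamate-cysteine ligase. For its catalytic subunit, Gclc had 159 ± 10.3 CPM in esgTS and 240.2 ± 21.3 in Patr1, a rise (log2 0.60 ± 0.09 SE, edgeR adjusted p = 1.45e-04), and for the modifier subunit, Gclm had 85.3 ± 6.17 and 75.8 ± 4.04 (edgeR adjusted p = 0.149). Of 7 listed genes of glutathione synthesis and breakdown, 3 were tested, of which 2 rose and 0 fell. The second riser, CG17636, went from 1.41 ± 0.11 CPM in esgTS to 10.5 ± 1.72 in Patr1 (edgeR adjusted p = 3.23e-05). Of 14 redox enzyme genes of the glutathione and thioredoxin systems, 10 were tested, 2 rose, 2 fell and 6 did not pass. Among them the malic enzyme gene Men, a source of NADPH, rose from 37.3 ± 2.95 CPM in esgTS to 119 ± 7.44 in Patr1 (log2 1.67 ± 0.10 SE, edgeR adjusted p = 7.89e-08), and Pgd, of the pentose phosphate pathway, fell from 85.1 ± 7.16 to 52.5 ± 3.74 (edgeR adjusted p = 1.38e-04). Prx6005, a peroxiredoxin gene, was at 34.6 ± 2.55 CPM in esgTS and higher, at 50.7 ± 4.51, in Patr1 (edgeR adjusted p = 0.00238).

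Of 8 listed multidrug and conjugate export genes, 4 were tested, and all 4 rose. MRP, a transporter of the family that exports glutathione conjugates, was at 321 ± 14.6 CPM in esgTS and 1011 ± 68.4 in Patr1 (log2 1.65 ± 0.09 SE, edgeR adjusted p = 3.04e-08). The related gene rdog went from 9.79 ± 1.83 CPM in esgTS to 119 ± 6.48 in Patr1 (log2 3.61 ± 0.13 SE, edgeR adjusted p = 1.50e-09), and CG4562 from 7.62 ± 0.97 to 17.1 ± 1.85 (edgeR adjusted p = 0.0016). The other riser was Mrp4. Mdr65 had 0 reads, and Mdr49, Mdr50 and CG10505 were below the filter.

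Of 7 genes for microsomal or GST-fold proteins of other families, 4 were tested, with 1 riser and 1 that fell. Mgstl, a microsomal GST gene, went from 21.0 ± 3.49 CPM in esgTS to 6.46 ± 2.40 in Patr1 (log2 -1.70 ± 0.28 SE, edgeR adjusted p = 2.87e-04). Clic, a chloride intracellular channel gene, went from 367 ± 19.1 to 445 ± 47.6 (edgeR adjusted p = 0.0269).

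The transcription factor Cap-n-collar (cnc), the fly Nrf2, is known to activate GstD1 and is held in check by Keap1. The cnc transcript rose from 697 ± 21.1 CPM in esgTS to 912 ± 5.86 in Patr1 (log2 0.39 ± 0.08 SE, edgeR adjusted p = 0.00182), and Keap1 fell from 45.2 ± 2.61 CPM in esgTS to 33.5 ± 4.23 in Patr1 (log2 -0.44 ± 0.13 SE, edgeR adjusted p = 0.0143). For its partner, maf-S had 58.3 ± 3.74 and 68.8 ± 4.65 CPM (edgeR adjusted p = 0.0562). Among 4 nuclear receptor genes tested, Hr96, a regulator of xenobiotic responses, went up from 58.5 ± 2.699 CPM in esgTS to 88.0 ± 9.04 in Patr1 (edgeR adjusted p = 4.51e-04), Hnf4 and EcR fell (log2 -1.22 and -0.63, edgeR adjusted p = 1.39e-06 and 4.58e-05), and ERR did not pass.

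The authors' deposited table listed 30 of the 35 genes with an adjusted p, of which 16 were higher and 5 lower in Patr1 at 0.05, against 17.3% and 16.4% of all genes in that table. Of those 21 genes, 20 had the same call here. GstD6, untested here, was higher in the authors' deposited table (log2 4.53, adjusted p = 0.0061), and GstE11 did not pass there (adjusted p = 0.0792).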

How the data were processed

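Per the labels' protocols, GFP-positive cells were sorted, and total RNA was made into rRNA-depleted libraries. Tools listed in the submitters' processing notes, in no stated order, are featureCounts from Subread 2.0.0, STAR 2.7.3a, cutadapt 2.9, DESeq2 and SAMtools 1.10. The sources used here name no build, annotation or strand setting, and coordinates are left out. Per the file headers, the deposited table of counts gives unnormalized reads for each gene and its length. The authors' deposited comparison table holds log2 fold changes and adjusted p-values, per the file headers. It was used only where named.

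Counts of 6 libraries, grouped by the genotype in their titles, entered the quasi-likelihood test of edgeR 4.0.16 (R 4.3.3), with TMM factors, filterByExpr (minimum count 10, about 3.65 CPM) and Benjamini-Hochberg adjustment over all 7927 tested genes at 0.05. Fold changes are fitted, Patr1 over esgTS. Each SE was derived from the test, as the absolute log2 fold change divided by the square root of its F statistic. CPM uses library totals (2035676 to 2958607 reads) multiplied by TMM factors, and TPM the deposited lengths, which for all 35 GST genes equal the exon bases of the BDGP6 annotation used for gene order and overlap. A row with no gene name held at most 0.00296% of a library's reads and was left out. The common biological coefficient of variation was 8.47%. Within a genotype, no pair of libraries agreed within counting noise (chi-square over its degrees of freedom 2.45 to 4.34); the labels do not say that replicates came from separate collections, so p-values may measure technical spread. The test was checked on simulated data, but changes were placed only in genes with higher counts than those of GstD4 or GstE9. Changes in genes with counts as low as theirs were not checked. Alternatives were other scalings, other filters, DESeq2 1.42.0, a replicate block and leaving out each library. The genes and lists were chosen with earlier results of these data known. Of the list symbols, CG10992, Trxr1 and Trxr2 had no row, and the last pair were found as Trxr-1 and Trxr-2. Every GST gene is accounted for; from the other lists up to 3 genes with the smallest p past the threshold, the cnc pathway genes and others named beside their list's counts are given. Genes beside or overlapping GST genes were taken by position. Python 3.11.15, pandas 2.3.3, SciPy 1.17.1 and matplotlib 3.10.9 made the tables and plots.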

Additional observations from a re-analysis of the deposited data

How the results depend on the processing

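The counts of GST genes that were higher (16) or lower (5), the counts over all genes and the summed ratio of each class stayed within 1.5 times or within the spread between replicates, under every alternative run. The ratios also kept their direction, except that of Zeta, at log2 0.13 with all libraries and -0.015 without Patr1 replicate 2. Of 16 risers 13 were called in every alternative; GstD4 and GstE9 dropped out only where a mean of at least 5 CPM was required, and GstE11 lost its call in 5 alternatives. All 5 genes that fell were called in every alternative. Signs changed only for genes that did not pass: GstE12 was at log2 -0.0061 with library totals alone and -0.030 to 0.064 when 1 library was left out, and GstT1 at 0.022 with upper-quartile factors and -0.082 to 0.067 when 1 library was left out. Same-numbered libraries did not deviate together (correlations of their deviations across genes 0.05, 0.20 and -0.04), so they were not treated as pairs; with the replicate number as a block, 16 GST genes were higher and 5 lower. The 10 untested genes had at most 21 reads in a genotype; with no filter on low counts, 17 GST genes were higher and 5 lower.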
